A study of Mus musculus with 6 samples.

Results

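Cluster 6 is a set of outflow tract (OFT) cells that were grouped by their RNA content in MERFISH sections of E11.5 mouse embryos. Its members are the segmented cells that lay inside the hand-drawn OFT outline and carried the authors' Leiden label 6. There were 507 such cells, 8.34% of the 6078 cells inside the outlines and 0.139% of the 364721 segmented cells of the 6 sections. The sections came from 3 control and 3 mutant embryos, and values were compared over embryos, not over cells.

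Control embryos were Ankrd11-nchet, with the genotype Ankrd11 fl/WT;RosaYFP STOP/STOP;Wnt1Cre2, and mutant embryos were Ankrd11-ncko, with the genotype Ankrd11 fl/fl;RosaYFP STOP/STOP;Wnt1Cre2. Both groups thus carried the Cre transgene and the YFP reporter, and the control had already lost a single copy of Ankrd11 in the neural crest. Ankrd11 encodes a chromatin regulator. The Cre is driven from Wnt1 sequences, which are active in neural crest precursors, so the deletion is aimed at the neural crest and not at heart muscle. Ankrd11 was not on the panel of 140 genes, and its loss could not be checked in these sections. The sections held 43458 to 82198 cells and the OFT outlines 814 to 1292. No cell identifier occurred in more than 1 embryo.

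The OFT is the channel through which the embryonic ventricles empty, and it is later divided into the aorta and the pulmonary artery. Its wall at this stage is a sleeve of heart muscle, built mostly by cells of the second heart field. Inside that sleeve lie the cushions, which are filled with mesenchyme that comes in large part from the cardiac neural crest, and the lumen is lined by endocardium. Signals pass between the muscle and the crest-derived mesenchyme while the cushions condense and fuse. Myh7 encodes the slow or β myosin heavy chain, a motor protein of the sarcomere that is abundant in embryonic heart muscle. Bmp7 encodes a secreted ligand of the BMP family. These 2 genes mark cluster 6, and Myh7 also marks cluster 5. Values of single genes are not used here, so neither marker was measured per embryo and the name cardiomyocyte rests on the markers given for the cluster. For each cell the values used were the number of decoded transcripts over the whole panel and the number of panel genes with at least 1 transcript.

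Cluster 6 was present in every embryo. It held 49 cells in the first, 113 in the second and 78 in the third control embryo. The mutant embryos held 89, 78 and 100 cells of the cluster. The control embryos had both the lowest and the highest number, and all 3 mutant embryos lay between them. The means were 80 ± 32.05 cells in the control and 89 ± 11 cells in the mutant (SD, n = 3 and 3), a difference of 9 cells (exact 2-sided permutation test over embryos, p = 0.8). The smallest p that 3 embryos against 3 can give in this test is 0.1, so no comparison between the genotypes here could pass 0.05. The main comparisons numbered 15, of which 5 were added after the values had been seen. After Benjamini-Hochberg adjustment over these 15 every p was 0.6 or higher. The p-values given below for alternatives are outside these 15 and were not adjusted. Such alternatives were other windows, a line fit, means, minimum transcripts, other reference cells and title stems.

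As a share of the OFT cells of the same embryo, cluster 6 made up 5.39% in the first control embryo (95% Wilson interval 4.101% to 7.06%), 11.48% in the second (9.64% to 13.6%) and 7.40% in the third (5.97% to 9.14%). In the mutant embryos it made up 6.89% (5.63% to 8.40%), 7.61% (6.14% to 9.40%) and 12.3% (10.2% to 14.7%). These intervals cover counting error only. In each genotype 1 embryo stood above the other two, with an interval that did not reach theirs, so the embryos of 1 genotype differed by more than counting error. The means of 8.09% ± 3.10 and 8.93% ± 2.93 differed by 0.836 percentage points, less than the SD of either genotype (n = 3 and 3, exact permutation p = 0.6). The direction turned when the first control embryo (-0.514 percentage points) or the third mutant embryo (-0.842) was left out. The titles of 4 embryos begin with AH and those of the third control and the third mutant embryo with AI, and the difference was -1.19 percentage points within the AH and 4.88 within the AI embryos. The first and second control and the second mutant embryo also share the longer stem AH59, and within these 3 it was -0.827. The 2 AI embryos carry different longer stems, AI04 and AI13, and the remaining AH embryo carries AH50. The labels do not say what a stem stands for.

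**Figure D1:**
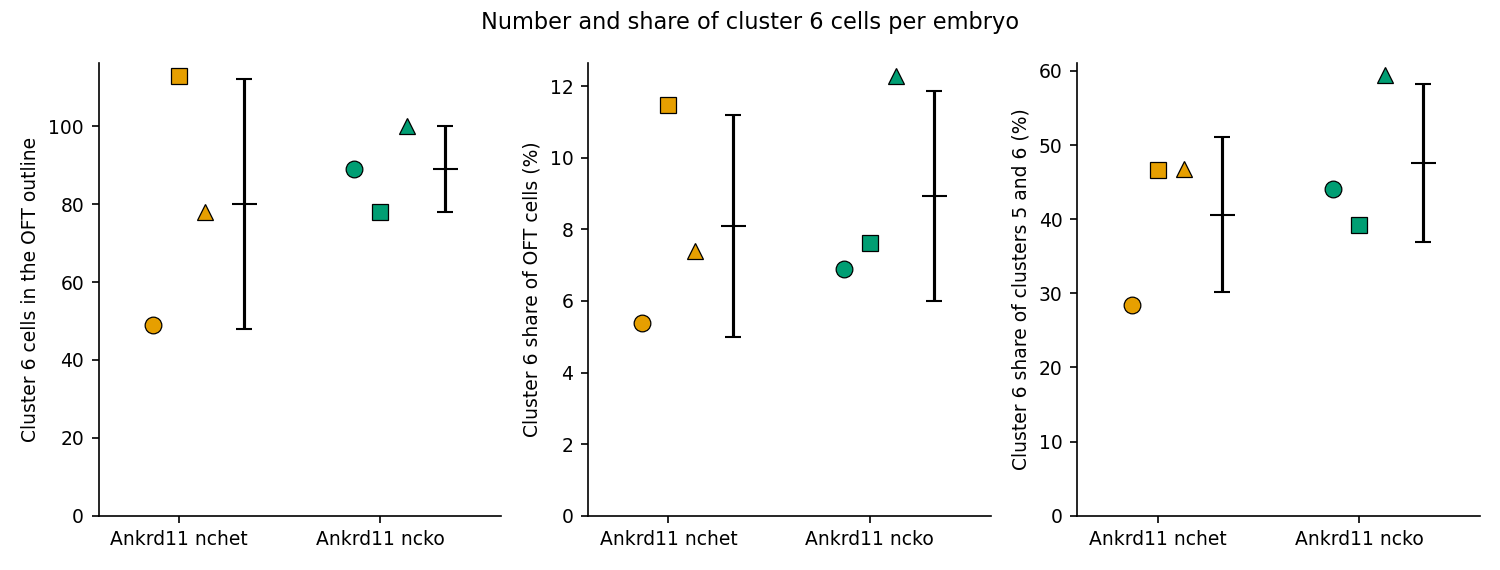
Number of cluster 6 cells inside the OFT outline (left), their share of all OFT cells (middle, %) and their share of the cells of clusters 5 and 6 (right, %), with 1 point per embryo (circle, square and triangle for embryos 1, 2 and 3), orange for Ankrd11-nchet and green for Ankrd11-ncko, with means and SDs drawn in black. The genotypes overlap in all 3 panels, and the first control embryo is lowest in each, with 49 cells, 5.39% and 28.5%.

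Shares depend on the size of the other clusters, so cluster 6 was also set against the neural crest clusters and against the rest. Clusters 2, 3 and 7, which the study assigns to the cardiac neural crest, numbered 294, 313 and 369 cells in the 3 control embryos, against 460, 444 and 452 in the 3 mutant embryos. Per 100 of these cells, there were 16.7, 36.1 and 21.1 cells of cluster 6 in the control and 19.3, 17.6 and 22.1 in the mutant embryos. The second control embryo stood above the other 5, which lay within a narrow range. The means were 24.6 ± 10.2 and 19.7 ± 2.30 (SD, n = 3 and 3, exact permutation p = 0.7), and without the second control embryo the mutant mean was the higher by 0.777. With the neural crest clusters taken out of the denominator, cluster 6 made up 7.97%, 16.8% and 11.4% of the remaining OFT cells in the control embryos. In the mutant embryos it made up 10.7%, 13.4% and 27.6%. The third mutant embryo was far above all others, and without it the difference between the means fell from 5.18 to -0.00384 percentage points (exact permutation p = 0.6 with all 3 and 3 embryos).

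Across the 6 embryos the number of cluster 6 cells did not follow the number of neural crest cells closely. Pearson's r was 0.28 (exact permutation p = 0.589, adjusted p = 0.589 over 4 relations, n = 6) and Spearman's rho was 0.35 (exact permutation p = 0.511, adjusted p = 0.511). Without the first and second control embryos, which lie farthest from the median number of neural crest cells, r was 0.58. That left the third control embryo with the mutant embryos. For cluster 5 the same relation gave r = -0.47 (exact permutation p = 0.403, adjusted p = 0.537) and rho = -0.66 (exact permutation p = 0.175, adjusted p = 0.322), and r turned to 0.22 without those embryos. Both numbers come from the same section and the same outline, and 6 embryos leave wide room for either direction. Every mutant embryo had more neural crest cells (444 to 460) than every control embryo (294 to 369). A relation over the 6 embryos therefore cannot be told apart from genotype.

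The share of cluster 6 tended to be higher in embryos with a deeper section. Outside the OFT outline the median was 339, 494 and 468 transcripts per cell in the control, against 418, 497 and 511 in the mutant embryos. The embryo with the shallowest section had the lowest share of cluster 6 and the embryo with the deepest section had the highest. Over the 6 embryos r was 0.78 (exact permutation p = 0.0111, adjusted p = 0.0444 over the 4 relations) and rho was 0.94 (exact permutation p = 0.0167, adjusted p = 0.0667). Without the first control and the first mutant embryo, the 2 farthest from the median depth, r was 0.71. This relation was chosen after the values had been seen, and the adjustment over the 4 relations does not account for that choice. The second control and the second mutant embryo, with nearly equal depth (494 and 497 transcripts), differed in their shares, at 11.48% and 7.61%. The 4 AH embryos ordered as 339, 418, 494 and 497 transcripts had shares of 5.39%, 6.89%, 11.48% and 7.61%, and the 2 AI embryos had 7.40% at 468 and 12.3% at 511. The part of depth in the shares was not tested.

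**Figure D2:**
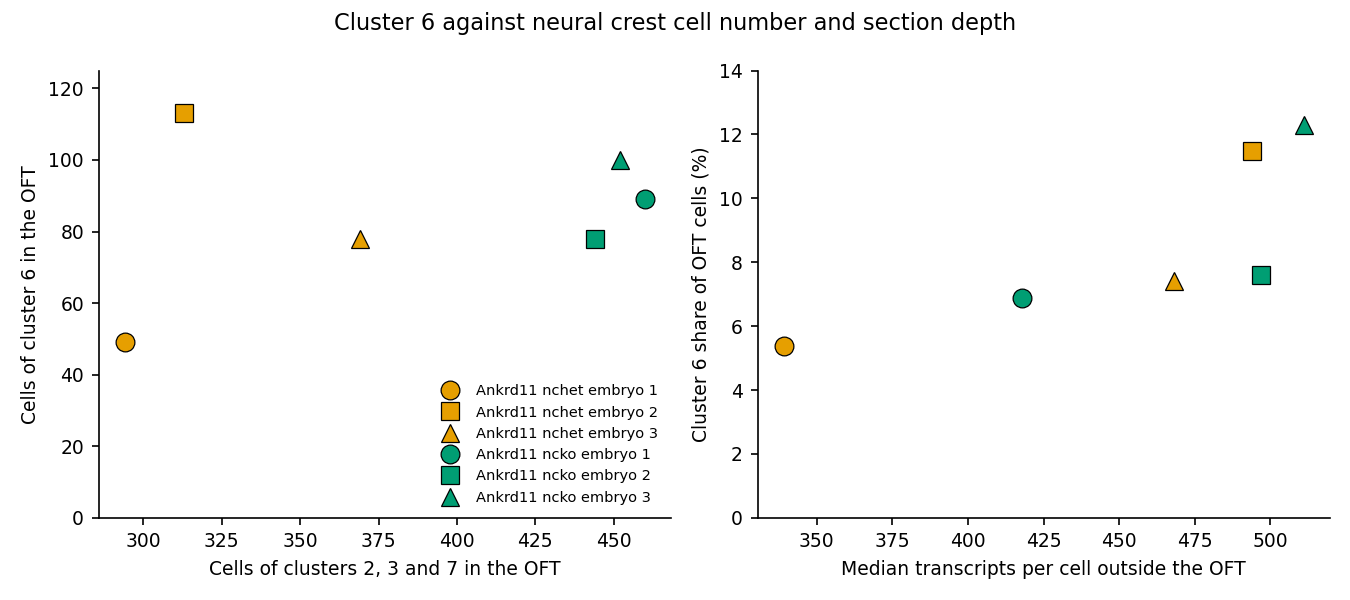
Left, cells of cluster 6 (y axis) against cells of clusters 2, 3 and 7 (x axis) inside the OFT outline; right, share of cluster 6 among OFT cells (y axis, %) against the median number of transcripts per cell outside the outline (x axis). Each point is 1 embryo, orange for Ankrd11-nchet and green for Ankrd11-ncko. The left panel shows no clear order, and in the right panel the share runs from 5.39% at 339 transcripts to 12.3% at 511.

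Cells of cluster 6 were deep. The median was 531, 896 and 814.5 decoded transcripts per cell in the control, against 847, 823.5 and 941.5 in the mutant embryos. The first control embryo stood well below the other 5, as did its cells outside the OFT. Against the median of the cells outside the outline in the same embryo, cluster 6 held 1.57 to 2.03 times as many transcripts. Against the OFT cells outside clusters 5 and 6, called non-myocardial below, it held 1.14 to 1.63 times as many. That set spans all other clusters, including cluster 10, whose 203 cells had a median of 12 transcripts, and cluster 7, whose 401 cells had a median of 176. It also holds cluster 9, whose cell type is not given here. The ratio to that set averaged 1.25 in the control and 1.46 in the mutant embryos. Against clusters 1, 2, 3, 4 and 8 alone it averaged 1.16 and 1.31. These ratios are descriptions, since the same transcripts were used to form the clusters.

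Among the clusters with at least 10 cells in an embryo, cluster 6 had the highest median number of transcripts in 3 embryos, namely the third control embryo, the first mutant embryo and the third mutant embryo. In the first control and the second mutant embryo cluster 9 was higher, with 537 against 531 and 877 against 823.5 transcripts. In the second control embryo cluster 3 (1014 transcripts) and cluster 9 (939) both exceeded cluster 6 (896). Cluster 6 was thus among the 3 deepest clusters of every embryo but not the deepest of all. It exceeded clusters 1, 2 and 4 in all 6 embryos, by as little as 1.00 times for cluster 2 and 1.04 times for cluster 4.

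Cluster 5, the other cluster marked by Myh7, was much shallower than cluster 6. Clusters 7 and 10 were shallower still, with cluster 6 at 3.36 to 5.65 and 41.2 to 106 times their medians. The median in cluster 5 was 282, 448 and 308 transcripts per cell in the control, against 320, 369 and 345.5 in the mutant embryos. Cluster 6 held 1.88, 2 and 2.64 times as many in the control and 2.65, 2.23 and 2.73 times as many in the mutant embryos. Cluster 5 lay below the non-myocardial cells of its own embryo, at 0.484 to 0.710 times their median, and cluster 6 above them, in all 6 embryos. The ratio of cluster 6 to cluster 5 averaged 2.18 ± 0.410 in the control and 2.53 ± 0.265 in the mutant embryos (SD, n = 3 and 3, exact permutation p = 0.2), and the genotypes overlapped.

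The spread within the clusters showed the same separation. In cluster 6 the 10th percentile lay at 310 transcripts in the first control embryo and at 447 to 510 in the others, and the 90th percentile at 702 and at 1348 to 1735. Only 1 of the 507 cells held fewer than 200 transcripts, against 147 of the 643 cells of cluster 5. The share of cluster 6 cells that fell below the median of cluster 5 was 0% to 7.96% per embryo, and the share of cluster 5 cells above the median of cluster 6 was 2.94% to 10.7%. Relative to its mean, the number of transcripts per cell varied less in cluster 6 than in cluster 5 in all 6 embryos, with coefficients of variation of 34.4% to 50.2% against 52.0% to 69.7%. Among the non-myocardial cells, which belong to several clusters, it was 55.6% to 63.1%.

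**Figure D3:**
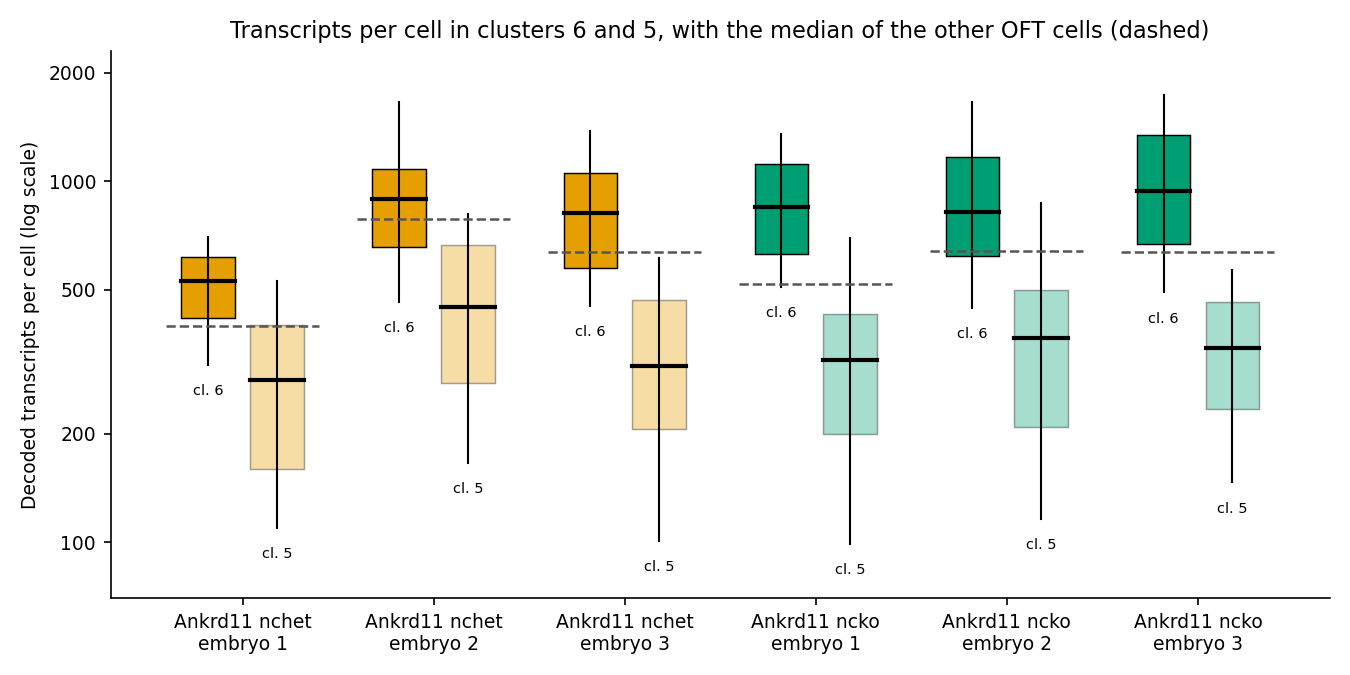
Decoded transcripts per cell (y axis, log scale) in cluster 6 (full colour) and cluster 5 (pale) of each embryo (x axis), orange for Ankrd11-nchet and green for Ankrd11-ncko; boxes span the quartiles, black bars are medians, thin lines run from the 10th to the 90th percentile, and dashed lines are the medians of OFT cells outside both clusters. In every embryo the median of cluster 6 lies above the dashed line and that of cluster 5 below it.

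Cluster 6 gave more of the OFT transcripts than of the OFT cells. It gave 6.78%, 13.7% and 9.68% of the transcripts in the control and 10.8%, 10.8% and 17.8% in the mutant embryos. In each embryo this exceeded its share of cells. For cluster 5 the opposite held, with 8.35% to 13.5% of the cells and 4.397% to 9.46% of the transcripts. The share of transcripts from cluster 6 averaged 10.04% ± 3.46 in the control and 13.1% ± 4.03 in the mutant embryos (SD, n = 3 and 3, exact permutation p = 0.4), and the difference of 3.10 percentage points was 0.778 without the third mutant embryo.

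Cells with more than 1000 transcripts numbered 174 in cluster 6. They made up 2.04%, 38.1% and 29.5% of the cluster in the control and 41.6%, 35.9% and 42.0% in the mutant embryos. The first control embryo, with the shallowest section, had 1 such cell of 49. Without that embryo the difference between the means was 6.05 percentage points instead of 16.6 (exact permutation p = 0.2 with all 3 and 3 embryos). In cluster 5 such cells made up 0% to 5.79%, and among the non-myocardial cells 4.34% to 31.4%.

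The median number of transcripts per cluster 6 cell averaged 747 ± 192 in the control and 871 ± 62.5 in the mutant embryos (SD, n = 3 and 3, exact permutation p = 0.4). The difference of 124 transcripts (123.5 before rounding) came to 15.4 without the first control embryo. Divided by the median of the non-myocardial cells of the same embryo, the values were 1.34, 1.14 and 1.28 in the control and 1.63, 1.29 and 1.48 in the mutant embryos. The lowest mutant embryo lay below the highest control embryo, so the groups overlapped by this pair alone. The means were 1.25 ± 0.103 and 1.46 ± 0.170 (exact permutation p = 0.2), a difference of 0.211. The median of the non-myocardial cells itself averaged 607 ± 197 and 600 ± 68.1 transcripts. With means in place of medians, or with only cells of at least 50 or at least 200 transcripts, each mutant embryo lay above each control embryo (differences of 0.271, 0.218 and 0.185, exact permutation p = 0.1 for each, the smallest possible). Set against clusters 1, 2, 3, 4 and 8 alone the difference was 0.151 (exact permutation p = 0.3), against OFT cells outside clusters 5, 6 and 9 it was 0.221 (exact permutation p = 0.2), and against cells outside the OFT it was 0.135 (exact permutation p = 0.4).

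Clusters 5 and 6 together numbered 172, 242 and 167 cells in the control, against 202, 199 and 168 in the mutant embryos. Cluster 6 made up 28.5%, 46.7% and 46.7% of them in the control and 44.1%, 39.2% and 59.5% in the mutant embryos. It was the larger cluster in the third mutant embryo alone. The means were 40.6% ± 10.5 and 47.6% ± 10.6 (SD, n = 3 and 3, exact permutation p = 0.6). The difference of 6.96 percentage points was 0.893 without the first control embryo and 0.998 without the third mutant embryo. Against the median transcripts outside the OFT, this share had r = 0.78 (exact permutation p = 0.0833, adjusted p = 0.167) and rho = 0.60 (exact permutation p = 0.242, adjusted p = 0.322) over the 6 embryos, and r = 0.45 without the first control and first mutant embryo.

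Within clusters 5 and 6, the share of cells in cluster 6 rose with the number of transcripts per cell. The clusters were formed from the same transcripts, after normalization and scaling by the authors, so the shares by window are descriptions. Of the cells of clusters 5 and 6 with fewer than 200 transcripts, 1 of 148 was in cluster 6. The share in cluster 6 was 5.15% at 200 to under 300 transcripts, 24.9% at 300 to under 500, 65.5% at 500 to under 1000 and 91.1% at 1000 or more, over the cells of all embryos. In single embryos it was 17.0% to 31.0% at 300 to under 500 transcripts and 54.5% to 78.0% at 500 to under 1000, so no embryo departed from this order in these windows. At 500 to under 1000 transcripts the mean share was 64.0% ± 9.03 in the control and 69.7% ± 7.64 in the mutant embryos (SD, n = 3 and 3, exact permutation p = 0.5). At 300 to under 500 transcripts it was 28.6% ± 2.27 and 21.6% ± 6.42 (exact permutation p = 0.3), the opposite direction.

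**Figure D4:**
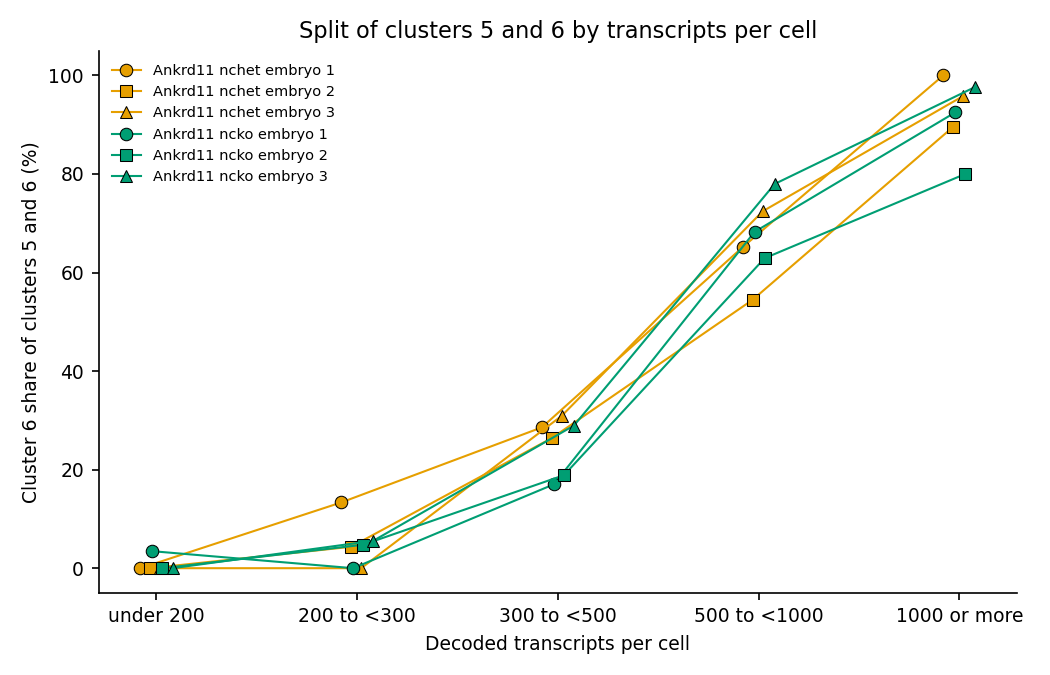
Share of cluster 6 among the cells of clusters 5 and 6 (y axis, %) by the number of decoded transcripts per cell (x axis, 5 windows), with 1 line per embryo, orange for Ankrd11-nchet and green for Ankrd11-ncko. Cluster 6 holds 17.0% to 31.0% of the cells at 300 to under 500 transcripts and 54.5% to 78.0% at 500 to under 1000.

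Over cells of all depths, the median cluster 6 cell had transcripts of 90, 97 and 97 panel genes in the control and of 96, 93 and 99.5 in the mutant embryos. The median cell of cluster 2, a neural crest cluster, had more panel genes than that of cluster 6 in all 6 embryos, by 1 to 9 genes, although it held fewer transcripts. Cluster 6 had 27 to 32 more panel genes than cluster 5, whose cells held fewer transcripts. The genotypes overlapped in the panel genes of cluster 6, with means of 94.7 ± 4.04 and 96.2 ± 3.25 (SD, n = 3 and 3, exact permutation p = 0.7).

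To bring cells of like depth together, those with 500 to under 1000 transcripts were compared, 253 of them in cluster 6. In this window the median cluster 6 cell had 94.5, 94 and 96 panel genes in the control and 92, 89 and 92 in the mutant embryos. That was 5 to 7 genes below the non-myocardial cells of the same embryo in all 6 embryos. The gap was widest against cluster 1, at 7.5 to 13 genes. Against clusters 2 and 3 it was 5.5 to 10 and 1 to 6.5 genes. Against cluster 4, marked by the endothelial cadherin gene Cdh5, cluster 6 was higher in 4 embryos, lower in 1 and equal in 1, within -1 to 2 genes. Against cluster 5 it was higher in all 6 embryos, by 5 to 13 genes. The window did not make depth equal. The median cluster 6 cell in it held 603.5 to 788 transcripts and the median cluster 5 cell 568 to 698, with cluster 6 deeper by 2 to 188 transcripts, while the gap to the non-myocardial cells ran from -64.5 to 50.5. A straight line of panel genes on log2 transcripts was therefore fitted in each embryo, after the values had been seen. At equal transcripts cluster 6 then had 6.24 to 10.6 more panel genes than cluster 5 and 3.53 to 7.45 fewer than the non-myocardial cells, each in all 6 embryos. It had 3.95 to 9.71 fewer than cluster 2 and 1.25 to 7.21 fewer than cluster 3, and so lay between cluster 5 and these neural crest clusters. At 300 to under 500 transcripts it likewise had 9 to 12.5 more panel genes than cluster 5 and 1 to 5 fewer than the non-myocardial cells. At 1000 to under 1500 transcripts, in the 5 embryos with at least 5 such cluster 6 cells, it had 6 to 10 fewer than the non-myocardial cells. Cluster 5 had 5 or more cells of that depth in 1 embryo only, the second mutant, where its median was 100 panel genes against 101.5 in cluster 6.

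**Figure D5:**
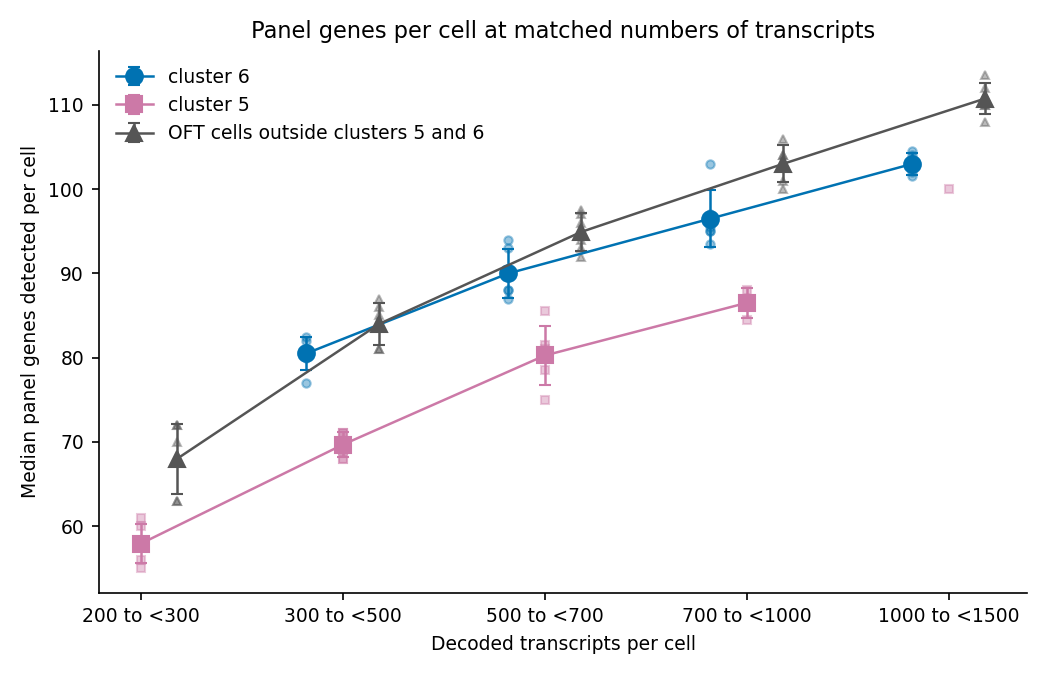
Median number of panel genes detected per cell (y axis) in 5 windows of decoded transcripts per cell (x axis) for cluster 6 (blue), cluster 5 (pink) and OFT cells outside both (grey). Small points are embryos with at least 5 cells in the window, and large points with bars are the mean and SD of the embryos where 3 or more had a value. From 300 to under 1000 transcripts cluster 6 lies above cluster 5 and below the other OFT cells; at 1000 to under 1500 cluster 5 has a value in 1 embryo only, at 100 against 101.5 panel genes in cluster 6.

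In the window of 500 to under 1000 transcripts each mutant embryo had fewer panel genes per cluster 6 cell than each control embryo. The means were 94.8 ± 1.04 in the control and 91 ± 1.73 in the mutant embryos, a difference of -3.83 genes (SD, n = 3 and 3, exact permutation p = 0.1, the smallest possible). The rest of the OFT differed by a similar amount. The non-myocardial cells of the same window had 100, 101 and 102 panel genes in the control and 99, 96 and 97 in the mutant embryos, a difference of -3.67 genes (exact permutation p = 0.1). Subtracting them within each embryo left -5.5, -7 and -6 genes in the control and -7, -7 and -5 in the mutant embryos, a difference of -0.167 between the genotypes (exact permutation p = 1). Cluster 6 cells of this window had medians of 720 ± 101 and 721 ± 32.3 transcripts, with 603.5 in the first control embryo as the lowest and 788 in the second as the highest. Fitted at 700 transcripts in each embryo, cluster 6 had 96.7, 90.97 and 94.9 panel genes in the control and 91.5, 88.99 and 91.7 in the mutant embryos. The difference was then -3.49 genes, and the genotypes overlapped (exact permutation p = 0.3). At 300 to under 600 and at 700 to under 1200 transcripts the difference in cluster 6 was -2.83 and -3 genes, with overlap between the genotypes (exact permutation p = 0.3 and p = 0.4). With means in place of medians in the window of 500 to under 1000 transcripts the difference was -3.04 genes, and the genotypes overlapped (exact permutation p = 0.2).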

How the data were processed

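Transcripts were measured by MERFISH in 1 transverse section of each of 3 Ankrd11-nchet and 3 Ankrd11-ncko embryos. The authors used MERlin for decoding and Cellpose for segmentation and set the OFT outline manually. In Seurat they normalized and scaled the counts of the cells inside it and computed principal components. Leiden clustering was run on these, all embryos in 1 run. The clustering resolution is not given in the sources used here. The deposited values are whole-number counts per segmented cell, not normalized: decoded transcripts, and panel genes detected. Outlines and cluster labels were used as deposited. No reads were aligned, so there is no genome build. Depth was 339 to 511 transcripts in the median cell outside the OFT.

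Numbers, shares and medians were computed per embryo in Python 3.11.15 (scipy 1.17.1, numpy 2.4.6, pandas 2.3.3). Genotypes were compared with an exact 2-sided permutation test of the difference between means, and relations over embryos with exact permutation of pairings. The permutation test was run on simulated shares that varied by counting error only. That run does not cover the wider spread between embryos seen here. No filter was set on cells; minimums of 50 and 200 transcripts, means, other denominators, other windows, single embryos left out, title stems and a straight-line fit on log2 transcripts were alternatives. Per the study's methods, sections were run at 2 sites, 4 at one and 2 at the other, with equal numbers of both genotypes at each. Which embryo was run where is not given in the sources used here; the title stems AH and AI split the embryos in the same numbers and served as an unchecked stand-in. The cluster, its comparisons and the lists were chosen with earlier results of these data known. Genes are named only as markers given for the clusters and as background.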

Additional observations from a re-analysis of the deposited data

How the results depend on the processing

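No comparison between the genotypes passed or could pass 0.05 with 3 embryos against 3, so only directions could change. Of 190 alternative values, 169 kept the direction and 21 turned it. Part of the 169 could not turn. Those with a title stem as a block repeat the main difference. Minimums of 50 and 200 transcripts leave the window of 500 to under 1000 transcripts unchanged. The 190 also hold values for the relation to neural crest cells and for cluster 6 against other clusters, which compare no genotypes. The count is thus no measure of how stable the directions are. Leaving out 1 embryo at a time gave differences (mutant minus control) of -0.842 to 2.53 percentage points for the share of OFT cells, -6.5 to 25.5 for cells per section, -0.00384 to 8.46 points for the share outside clusters 2, 3 and 7, -8.94 to 0.777 for cells per 100 neural crest cells, -0.833 to 3.08 for median panel genes, -0.833 to 0.167 for panel genes relative to non-myocardial cells at 500 to under 1000 transcripts, and -56.4 to 35.8 for the median transcripts in that window. The 4 embryos with AH titles alone gave -1.19 points for the share of OFT cells and -0.343 for that outside clusters 2, 3 and 7. The 2 embryos with AI titles, which share no longer stem (AI04 and AI13), gave 4.88 and 16.2 points for these shares. Between these 2 embryos the direction turned for cells per 100 neural crest cells (0.986). It also turned for panel genes relative to non-myocardial cells (1) and for the median transcripts in the window (-11.5). The 3 embryos that share the stem AH59 gave -0.827 points for the share of OFT cells, -3 for cells per section and -0.5 for median panel genes. With the AH or AI stem as a block the differences equal those without it, since each stem holds equal numbers of both genotypes, and p was 0.167 to 1, where 0.167 is the smallest possible. Among cells with 300 to under 500 transcripts, an alternative added after the data were seen, the share of cluster 6 in clusters 5 and 6 differed by -7.03 points. The cause of these turns was not tested. No paired analysis was possible because the labels match no control embryo to a mutant embryo. Embryos are numbered here in accession order, which is also the study's order within each genotype. Nothing given says that equal numbers form a pair. The comparisons by stem AH59 and by block were added after the data were seen. Panel genes per cell rose from window to window of transcripts. Over the cells of all embryos, so did the share of cluster 6 in clusters 5 and 6. The clusters were formed from the same transcripts, and the part of depth in either was not tested.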
